A study of Homo sapiens with 16 samples.

Results

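Control cells of 2 experiments on LNCaP cells were compared, cells transfected with a control siRNA and cells given the solvent of a drug, in 8 of the 16 samples of the series. LNCaP is an established human prostate cancer line of luminal type. The study used these cells to ask which genes depend on XBP1, and it set XBP1 siRNA (siXBP1) against control siRNA and the IRE1 inhibitor MKC8866 against DMSO. The samples were taken by their labels: the 4 siCtrl libraries come from cells transfected with Allstar control siRNA and kept for 2 days, and the 4 Vehicle libraries from cells kept in DMSO for 24 h. The cells were at passage 20 in RPMI medium with serum. All received 30 nM thapsigargin (TG) for 3 h before total RNA was taken with Trizol and turned into stranded libraries. The Vehicle cells are not labelled as transfected and the siCtrl cells are not labelled as given DMSO, so the transfection, the solvent, the time in culture and the experiment itself go with the groups and cannot be told apart. Cells without TG were not analysed here, so the levels below are those of stressed cells and not a response to stress. No source used here says that the libraries of a group came from separate cultures, and p-values therefore measure the spread between these samples, which may be technical.

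TG blocks the calcium pump of the endoplasmic reticulum (ER), and the loss of ER calcium leaves proteins unfolded there. The cell answers with the unfolded protein response (UPR): IRE1 (gene ERN1) splices the XBP1 mRNA, PERK (EIF2AK3) slows translation and favours the factors ATF4 and CHOP (DDIT3), and ATF6 is cut to release a factor that raises ER chaperones. A control siRNA has no intended target, but like any small RNA duplex it enters the Argonaute proteins of the RNA interference machinery.

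Between 31920910 and 34509488 fragments per siCtrl library lay on genes, and between 28923919 and 34188950 per Vehicle library. Correlations of log2 CPM (fragment counts as a rate of the library total, scaled by the TMM method) lay at 0.995 to 0.997 between siCtrl libraries, 0.996 to 0.997 between Vehicle libraries and 0.993 to 0.995 across the groups. The first principal component held 37.4% of the variance and separated the groups, and the second, with 14.99%, set siCtrl replicates 1 and 3 apart from siCtrl replicates 2 and 4. Transcripts of the mitochondrial genome took 2.76% to 5.04% of the fragments in siCtrl, lowest in replicate 4, and 4.02% to 4.31% in Vehicle, with means of 4.13% ± 0.989 and 4.13% ± 0.122 (SD, n = 4 each) and an exact two-sided permutation p of 1. The 20 most abundant genes, mitochondrial ones included, took 6.97% ± 0.772 and 6.85% ± 0.0908 (SD, n = 4 each; exact two-sided permutation p = 0.8). The luminal epithelial markers, among them keratins KRT8 and KRT18, were present in every library and summed to 2602 to 2894 TPM in siCtrl and 2699.5 to 2953 TPM in Vehicle. TPM are counts per exonic base, scaled to the same total in each library. Of the markers of other cell types, PTPRC of leukocytes reached at most 0.0124 TPM, PECAM1 of endothelium 0.02901 TPM and KRT5 of basal cells 0.06997 TPM, and COL1A2 had no count in any library. VWF of endothelium stood at 2.403 to 3.06 TPM, the neuroendocrine marker SYP at 1.93 to 2.67 TPM and KRT14 of basal cells at 0.528 to 1.67 TPM. CD68, the highest of the immune markers, stood at 0.0918 to 0.38 TPM in siCtrl and 0.261 to 1.08 TPM in Vehicle. The smooth muscle actin gene ACTA2, at 79.9 to 99.2 TPM in siCtrl and 77.6 to 84.1 TPM in Vehicle, and COL1A1, at 9.04 to 11.2 and 9.37 to 12.8 TPM, were the highest of the stromal markers.

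Both control groups shared a profile led by translation factors and ER chaperones. Of 14056 nuclear protein-coding genes ranked by mean TPM, elongation factor EEF2 stood first in both groups, the ER chaperone HSPA5 (BiP) was the second and the calcium-binding ER chaperone CALR the third. EEF2 reached 4238 ± 221 TPM in siCtrl and 3909 ± 231 TPM in Vehicle (mean ± SD, n = 4 each). HSPA5 reached 3321 ± 185 TPM in siCtrl and 3303 ± 53.99 TPM in Vehicle, and CALR 2715 ± 134 TPM in siCtrl and 2707 ± 98.5 TPM in Vehicle. HSP90B1 (GRP94), the HSP90 of the ER, ranked 7 in siCtrl and 6 in Vehicle, at 2351 ± 114 TPM in siCtrl and 2504 ± 68.8 TPM in Vehicle. Others of the 15 highest genes were the ribosomal protein genes RPS2, RPS18 and RPL8, the elongation factors EEF1A1 and EEF1A2, the actins ACTB and ACTG1, the glycolytic enzyme GAPDH, the iron store subunit FTH1 and the cytosolic chaperone HSP90AB1, at 1587 to 2689 TPM. Fragments that map to more than 1 place were not counted. The levels of genes with near-identical processed pseudogenes, such as these ribosomal protein genes and EEF1A1, are therefore uncertain. The pseudogene EEF1A1P5, which the ranking leaves out, took a larger mean share of the fragments than EEF2. This leaves the rank of EEF1A1, and the first place of EEF2, uncertain. Of these 15, RPS2 was lower in siCtrl, at 1386, 1422, 1366 and 1343 CPM in siCtrl replicates 1 to 4 against 1583, 1532, 1594 and 1516 CPM in Vehicle replicates 1 to 4, the order of all sets of 4 values below. Its log2 fold change, siCtrl against Vehicle and ± SE (n = 4 and 4) here and below, was -0.17 ± 0.036 (edgeR adjusted p = 0.0015). No siCtrl library reached the Vehicle libraries. EEF2 was higher, at 0.12 (edgeR adjusted p = 0.041), but its call was lost without siCtrl replicates 2, 3 or 4 or Vehicle replicates 2 or 4, each left out alone (edgeR adjusted p 0.054 to 0.15). It was also lost with at least 10 counts in every library (edgeR adjusted p = 0.08) and with the replicate block (edgeR adjusted p = 0.073). The block is a term for the replicate number shared by a siCtrl and a Vehicle library. The other 13 did not pass the test, and their 95% intervals ran from -0.27 to 0.20 on the log2 scale. Over the whole table, 9682 of 21092 genes tested (45.9%) had a 95% interval of the fold change wholly within 0.32 of 0 on the log2 scale, and 1150 of these were nevertheless called different at the threshold given below.

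The sensors of the UPR differed by small amounts at most between the controls. None of the 7 sensors and stress kinases was called by edgeR (higher, 1 at an unadjusted p under 0.05 and 0 in DESeq2; lower, 0 at an unadjusted p under 0.05 and 0 in DESeq2), against 7.66% of all genes called higher and 6.34% called lower, and all 7 of their 95% intervals lay within 0.32 of 0 on the log2 scale. ERN1, the gene of IRE1, had 163, 184, 171 and 175 CPM in siCtrl and 168, 157, 167 and 168 CPM in Vehicle. Its log2 fold change was 0.07 ± 0.043 (edgeR adjusted p = 0.33), and its groups overlapped, with Vehicle replicate 2 the lowest of all. EIF2AK2, the kinase PKR that binds double-stranded RNA, was called higher without Vehicle replicate 2, and it was the single sensor called in any of the other fits. ATF6 had a log2 fold change of 0.051 ± 0.041 (95% interval -0.034 to 0.14) and EIF2AK3 (PERK) one of -0.049 ± 0.043 (95% interval -0.14 to 0.04). Per length, the haem-sensing kinase gene EIF2AK1 was the most abundant of the 7, at 146 ± 6.02 TPM in siCtrl and 153 ± 3.11 TPM in Vehicle. ERN1 reached 54.5 ± 3.84 TPM in siCtrl and 52.1 ± 1.94 TPM in Vehicle, and EIF2AK3 51.05 ± 1.58 TPM in siCtrl and 53.1 ± 0.907 TPM in Vehicle. ATF6 reached 39.6 ± 1.39 TPM in siCtrl and 38.5 ± 0.657 TPM in Vehicle. ATF6 stood below EIF2AK3 and ERN1 in both groups, while EIF2AK3 and ERN1 differed by less than the larger of their SDs in either group.

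Of the ER genes of the kind that spliced XBP1 raises, 4 of 22 were higher in siCtrl (18.2%, against 7.66% of all genes). Another 4 were lower (18.2%, against 6.34% of all genes). The median log2 fold change of 0.044 compares with -0.0073 over all 21092 genes tested. XBP1 itself was lower, at 384, 419, 363 and 356 CPM in siCtrl against 482, 532, 477 and 499 CPM in Vehicle, a log2 fold change of -0.39 ± 0.047 (edgeR adjusted p = 2.0e-06). Its groups did not overlap, and siCtrl replicate 2 was the highest of its group as Vehicle replicate 2 was of the other. Counts per gene do not separate spliced from unspliced XBP1 mRNA. DNAJB9, a co-chaperone of BiP, went the other way with 227, 228, 208 and 238 CPM in siCtrl and 173, 183, 169.9 and 188 CPM in Vehicle (0.34 ± 0.045, edgeR adjusted p = 8.4e-06). FICD, the enzyme that AMPylates BiP, differed by 0.34 ± 0.04 (edgeR adjusted p = 1.6e-06), and SEL1L, the partner of the ER-associated degradation ligase, by 0.22 ± 0.035 (edgeR adjusted p = 7.3e-05). For these genes too every siCtrl library lay above every Vehicle library. Beside XBP1, SERP1, which stabilises membrane proteins at the translocon, was lower (-0.21 ± 0.04, edgeR adjusted p = 5.1e-04). So was the mannosidase-like EDEM1 (-0.18 ± 0.046, edgeR adjusted p = 0.009), whose call was lost without Vehicle replicate 4 (log2 fold change -0.15, edgeR adjusted p = 0.064). The remaining called members were SPCS3, higher at 0.18, and SRPRB, lower at -0.16. SEC61A1, the channel of the translocon, did not pass the test (0.066 ± 0.039, 95% interval -0.013 to 0.15). Leaving out 1 library moved the count lower in siCtrl between 2 (without Vehicle replicate 4) and 5.

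The ER chaperones of the ATF6 type had summed levels of 14060.3 ± 526 TPM in siCtrl and 14509 ± 206 TPM in Vehicle over 14 genes. All 14 had 95% intervals within 0.32 of 0. In siCtrl 3 were called lower (21.4%, against 6.34% of all genes) and 0 higher (edgeR, with 1 at an unadjusted p under 0.05 and 0 in DESeq2). These were the disulfide isomerase PDIA4 (-0.14 ± 0.038, edgeR adjusted p = 0.013), the lectin chaperone CANX (-0.12 ± 0.036, edgeR adjusted p = 0.022) and CRELD2 (-0.17 ± 0.056, edgeR adjusted p = 0.041). The call of CANX was lost without siCtrl replicates 2 or 3 or Vehicle replicates 3 or 4 (edgeR adjusted p 0.06 to 0.084), and that of CRELD2 without siCtrl replicates 2 or 4 or Vehicle replicates 1, 2, 3 or 4 (edgeR adjusted p 0.051 to 0.16) and with all 16 libraries in 1 fit (edgeR adjusted p = 0.077). That of PDIA4 was lost without Vehicle replicate 3 (log2 fold change -0.13, edgeR adjusted p = 0.054). With 1 library left out, the count lower ran from 0 (without Vehicle replicate 3) to 5 (without siCtrl replicate 1), and was 1 without siCtrl replicate 2 or Vehicle replicate 4. HSPA5 had 3911, 3505, 3932 and 3864 CPM in siCtrl and 3731, 3771, 3807 and 3731 CPM in Vehicle, with siCtrl replicate 2 below all the others and the groups overlapping (0.016 ± 0.039, edgeR adjusted p = 0.86). The log2 fold change of CALR was 0.012 ± 0.037 (95% interval -0.064 to 0.088).

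Among the targets of PERK, ATF4 and CHOP, 3 of 30 (10%, against 7.66% of all genes) were higher in siCtrl. Another 7 (23.3%, against 6.34% of all genes) were lower. The median log2 fold change was -0.035, against -0.0073 over all genes tested. Without siCtrl replicate 3, 1 was higher. CEBPB, a leucine zipper factor that pairs with CHOP and ATF4, had 43.3, 50.96, 40.1 and 42.7 CPM in siCtrl and 62.4, 67.5, 58.1 and 57.3 CPM in Vehicle, a difference of -0.47 ± 0.063 (edgeR adjusted p = 9.4e-06). ATF3, a repressor induced by ATF4, differed by -0.19 ± 0.041 (edgeR adjusted p = 0.0019). The nuclear export factor of tRNA XPOT differed by -0.18 ± 0.038 (edgeR adjusted p = 0.0015) and DDIT3 (CHOP) by -0.16 ± 0.04 (edgeR adjusted p = 0.0089). In each of these the siCtrl libraries all lay below the Vehicle libraries. CHAC1, which breaks down glutathione, was higher (0.21 ± 0.043, edgeR adjusted p = 0.0012). So was SESN2, an inhibitor of mTORC1 (0.17 ± 0.045, edgeR adjusted p = 0.0094), but not without siCtrl replicate 3 (log2 fold change 0.15, edgeR adjusted p = 0.0504). The glycyl-tRNA synthetase gene GARS1 (0.11 ± 0.036, edgeR adjusted p = 0.046) lost its call without siCtrl replicates 2, 3 or 4 or Vehicle replicates 1, 3 or 4 (edgeR adjusted p 0.075 to 0.14). It also lost it with no filter on low counts (edgeR adjusted p = 0.11), with at least 10 counts in every library (edgeR adjusted p = 0.053) and with the replicate block (edgeR adjusted p = 0.082). ATF4 itself, at 1248 ± 75.1 TPM in siCtrl and 1232 ± 51.9 TPM in Vehicle, did not pass the test (0.026 ± 0.04, 95% interval -0.056 to 0.11), nor did DDIT4 (-0.054 ± 0.058, 95% interval -0.17 to 0.066). SLC7A11, the cystine transporter, was lower, at -0.13 (edgeR adjusted p = 0.032), with overlapping groups and a call lost without siCtrl replicates 1 or 3 or Vehicle replicates 2, 3 or 4 (edgeR adjusted p 0.0503 to 0.13). PSPH and SLC3A2 were lower, at -0.16 and -0.17.

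**Figure D1:**
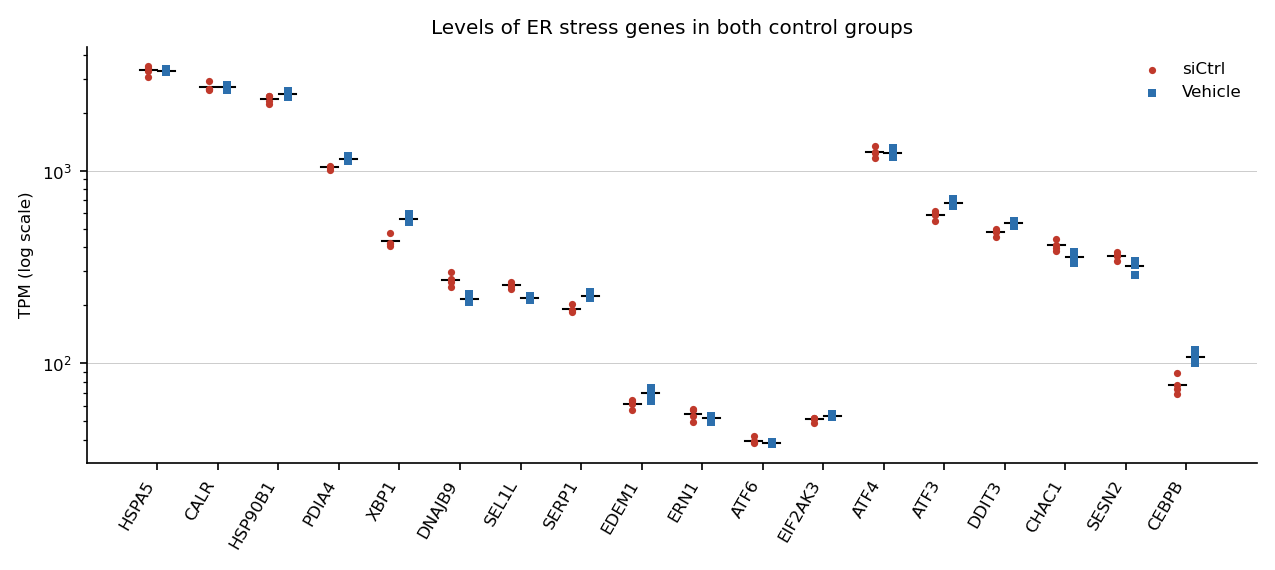
TPM (log axis) of 18 ER stress genes in each of the 4 siCtrl libraries (red circles) and the 4 Vehicle libraries (blue squares), with the group means as bars. Levels ran from 38.5 TPM (ATF6) to 3321 TPM (HSPA5), and the separate groups of XBP1, DNAJB9 and CEBPB stood beside the overlapping ones of HSPA5, ERN1 and ATF4.

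The controls differed in many genes, mostly by little. With edgeR's quasi-likelihood test and a threshold of 0.05 on the adjusted p, 1615 genes (7.66% of 21092) were higher and 1337 (6.34%) were lower in siCtrl. Of these 2952, 2730 (92.5%) differed by less than 1.5-fold, and the median size of the difference was 0.24 on the log2 scale. Only 7 genes (0.0332%) were called at least 2-fold higher, and 33 (0.156%) at least 2-fold lower, and 31 of these 40 had a mean of at most 1.12 CPM. Without Vehicle replicate 3 the first count was 2 and without siCtrl replicate 3 it was 4. The siCtrl and Vehicle libraries did not overlap in 3681 of the 21092 genes (17.5%), so a lack of overlap was common. Protein-coding genes made up 2698 of the called genes. The common biological coefficient of variation between libraries of a group was 5.201%.

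**Figure D2:**
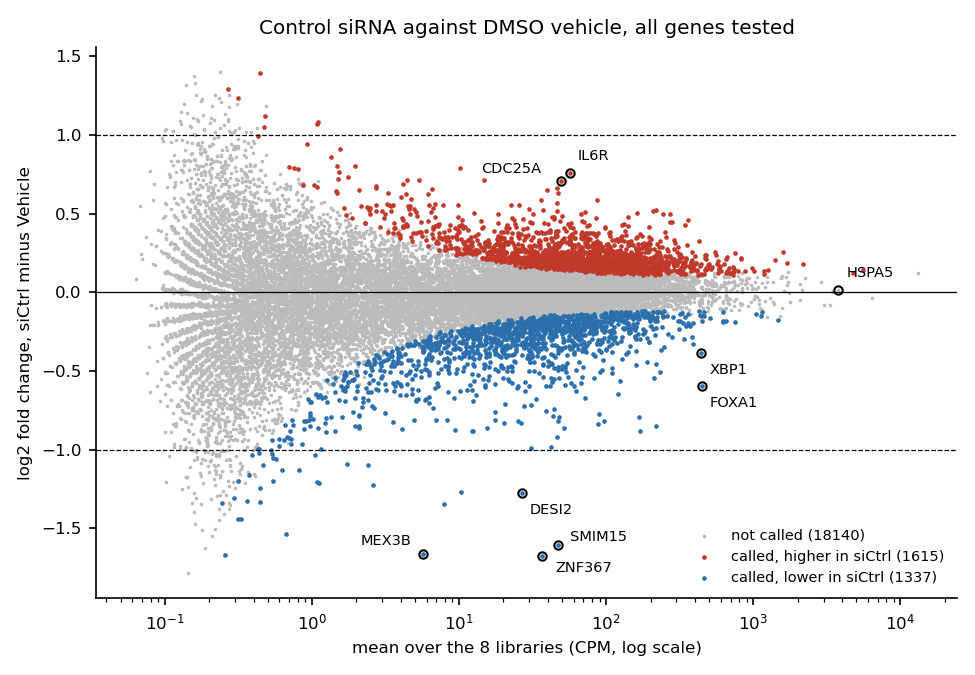
Log2 fold change of siCtrl against Vehicle (vertical axis) and mean CPM over the 8 libraries (horizontal log axis) for each of 21092 genes tested, with called genes in red (higher in siCtrl) and blue (lower) and dashed lines at 2-fold. The genes far below the lower dashed line at a high level are ZNF367 and SMIM15, and none lies as far above the upper line at a like level.

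The genes with the largest called differences were lower in siCtrl, and some were abundant enough for a small error. ZNF367, a zinc finger transcription factor, had 19.9, 15.9, 17.4 and 17.1 CPM in siCtrl and 53.2, 55.5, 60.4 and 55.1 CPM in Vehicle, 3.19-fold lower in siCtrl (log2 fold change -1.67 ± 0.062, edgeR adjusted p = 9.6e-16). SMIM15, a small membrane protein, had 21.8, 22.6, 23.8 and 23.9 CPM against 64.02, 74.4, 70.4 and 72.3 CPM, 3.05-fold lower (-1.61 ± 0.055, edgeR adjusted p = 2.7e-16). MEX3B, an RNA-binding ubiquitin ligase, had 2.71, 2.99, 2.97 and 2.33 CPM against 8.88, 8.45, 8.14 and 9.28 CPM, 3.16-fold lower (-1.66 ± 0.10, edgeR adjusted p = 3.0e-11). In all 3 genes the siCtrl and Vehicle libraries were far apart compared with the spread inside either group. In the annotation of the count table (hg38) ZNF367 lies at chr9:96385941-96418329, SMIM15 at chr5:61157709-61162474 and MEX3B at chr15:82041778-82046141, all on the minus strand. DESI2, a deSUMOylating peptidase, had 15.7, 16.7, 14.4 and 15.3 CPM in siCtrl and 35.7, 37.02, 38.6 and 39.5 CPM in Vehicle (-1.28 ± 0.06, edgeR adjusted p = 1.1e-13). TDRD7, a Tudor domain protein of RNA granules, had 7.14, 6.37, 5.37 and 5.38 CPM and 15.4, 14.5, 13.8 and 14.96 CPM (-1.27 ± 0.089, edgeR adjusted p = 2.0e-10). CSGALNACT2, an enzyme of chondroitin sulfate synthesis, had 20.9, 20.3, 21.5 and 19.6 CPM and 40.7, 42.5, 38.7 and 41.5 CPM (-0.99 ± 0.054, edgeR adjusted p = 2.8e-12). Again no library of one group fell within the range of the other.

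The remaining 6 of the 12 genes named for the largest falls were LRRC26, FBN1, SKIDA1, PROS1, TMEM17 and GNG5B. LRRC26, the auxiliary subunit of a calcium-activated potassium channel, had 4.595, 7.22, 3.04 and 3.05 CPM in siCtrl, where replicate 2 stood above the others, and 12.9, 11.4, 10.1 and 11.3 CPM in Vehicle (-1.34 ± 0.16, edgeR adjusted p = 2.2e-06). It lies opposite to GRIN1, and the counting ignored strand; GRIN1 was higher in siCtrl (0.31, edgeR adjusted p = 0.0016). FBN1 (fibrillin-1) differed by -1.22 ± 0.15 (edgeR adjusted p = 3.1e-06) and SKIDA1 by -1.09 ± 0.20 (edgeR adjusted p = 3.5e-04). PROS1 (protein S of coagulation) differed by -1.04 ± 0.23 (edgeR adjusted p = 0.0025) and TMEM17, a protein of the ciliary transition zone, by -0.99 ± 0.21 (edgeR adjusted p = 0.002). Their lowest counts in a library were 48, 32, 15 and 19, and the groups did not overlap. GNG5B, listed at 1.48, 1.23, 1.61 and 1.803 CPM in siCtrl and 3.42, 3.24, 3.02 and 3.46 CPM in Vehicle (-1.10 ± 0.15, edgeR adjusted p = 7.6e-06), is a near copy of GNG5. The latter encodes a gamma subunit of G proteins, and reads may be split between them. GNG5B also overlaps AMMECR1 on the same strand, which did not pass (log2 fold change -0.11, edgeR adjusted p = 0.21). GNG5, looked up after these values were seen, had 121, 111, 119 and 124 CPM in siCtrl and 227, 219, 212 and 216 CPM in Vehicle, 1.84-fold lower (-0.88 ± 0.042, edgeR adjusted p = 1.8e-13), with no overlap.

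Differences in the other direction were smaller. IL6R, the receptor of interleukin 6, had 68.5, 73.1, 72.2 and 70.3 CPM in siCtrl and 43.5, 40.7, 41.7 and 41.7 CPM in Vehicle, 1.69-fold higher in siCtrl (0.76 ± 0.046, edgeR adjusted p = 1.3e-11). CDC25A, the phosphatase that activates CDK2 at the start of S phase, had 60.1, 62.1, 60.1 and 60.6 CPM against 39.1, 36.4, 37.9 and 35.7 CPM, 1.63-fold higher (0.70 ± 0.047, edgeR adjusted p = 8.6e-11). GPR137B, a lysosomal membrane protein, had 19.01, 17.3, 17.6 and 18.96 CPM against 10.2, 11.6, 10.7 and 11.99 CPM (0.71 ± 0.071, edgeR adjusted p = 1.0e-07). In each of these genes the groups were well apart. GPR137B overlaps ERO1B on the opposite strand, which did not pass (0.0018 ± 0.063), and fragments that fall in both were not counted. ASB13, a substrate adaptor of a ubiquitin ligase, differed by 0.79 ± 0.079 (edgeR adjusted p = 1.1e-07). TENT5C, a poly(A) polymerase, differed by 0.71 ± 0.10 (edgeR adjusted p = 1.5e-05) and HIC2, a transcriptional repressor, by 0.71 ± 0.13 (edgeR adjusted p = 2.4e-04). The other 6 were weakly expressed. HRNR (hornerin, an epidermal protein) had 1.16, 1.85, 1.33 and 1.51 CPM in siCtrl and 0.704, 0.7499, 0.551 and 0.786 CPM in Vehicle (1.07 ± 0.22, edgeR adjusted p = 0.0012), with a lowest count of 17. CEACAM1, an adhesion molecule, had 2.05, 1.88, 1.99 and 2.09 CPM in siCtrl and 0.938, 1.02, 1.78 and 0.553 CPM in Vehicle, where replicate 3 came close to the siCtrl libraries (0.91 ± 0.23, edgeR adjusted p = 0.0065). CGA, the common subunit of the glycoprotein hormones, differed by 0.80 ± 0.18 (edgeR adjusted p = 0.0028) and the ephrin receptor EPHA5 by 0.80 ± 0.16 (edgeR adjusted p = 9.2e-04). The glucose transporter SLC2A3 (GLUT3) differed by 0.76 ± 0.19 (edgeR adjusted p = 0.0069). The tubulin gene TUBA3E differed by 0.73 ± 0.18 (edgeR adjusted p = 0.0068), and its close copy TUBA3D, which can share its reads and was looked up afterwards, by 0.56 ± 0.10 (edgeR adjusted p = 5.1e-04).

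**Figure D3:**
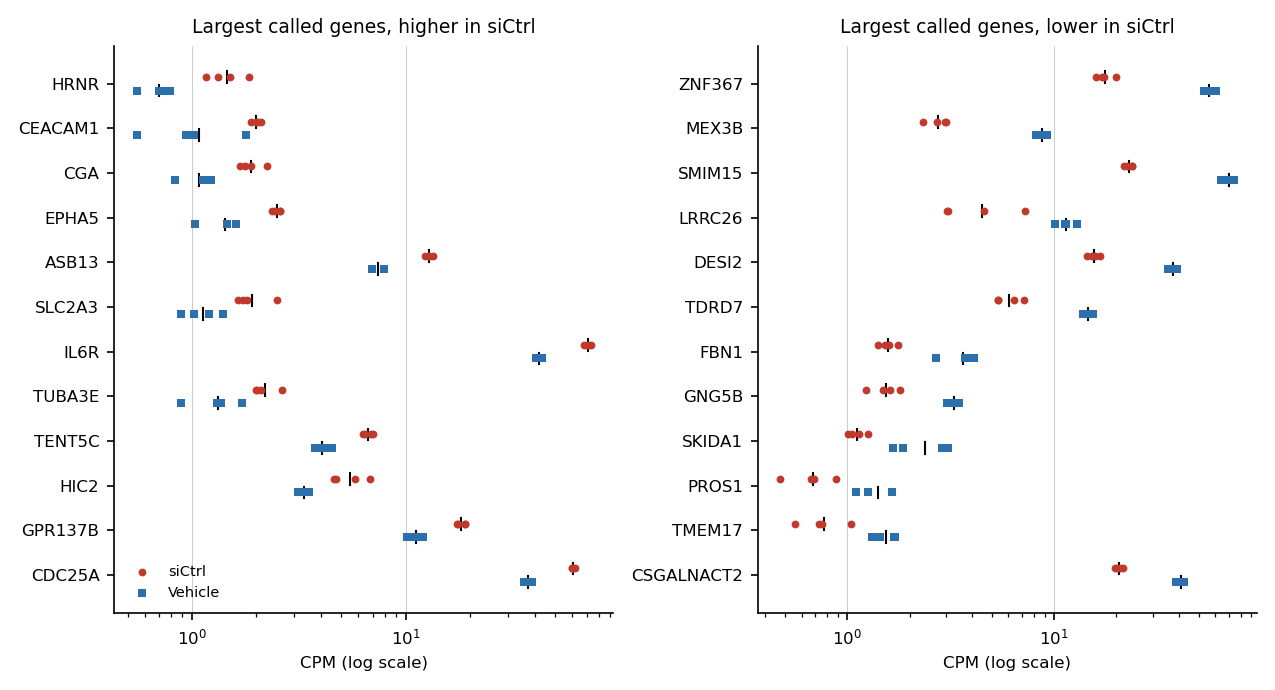
CPM (log axis) in each of the 4 siCtrl libraries (red circles) and 4 Vehicle libraries (blue squares) for the 12 genes with the largest called rises (left) and the 12 with the largest called falls (right), with group means as bars. No group overlaps the other in any gene, which the choice of genes required; ZNF367, MEX3B and SMIM15 show the widest gaps.

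Gene lists were described by the number of called members and by their median, beside 7.66% higher, 6.34% lower and a median of -0.0073 over all genes tested. Of the 14069 protein-coding genes tested, 1529 were higher and 1169 lower (19.2% called in all). The shares over all genes are therefore a low background for these lists, which hold mostly protein-coding genes. The medians of the 22 lists lay between -0.14 (mitosis and cytokinesis) and 0.14 (liver X receptor targets). Within a list, genes of both directions were common.

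**Figure D4:**
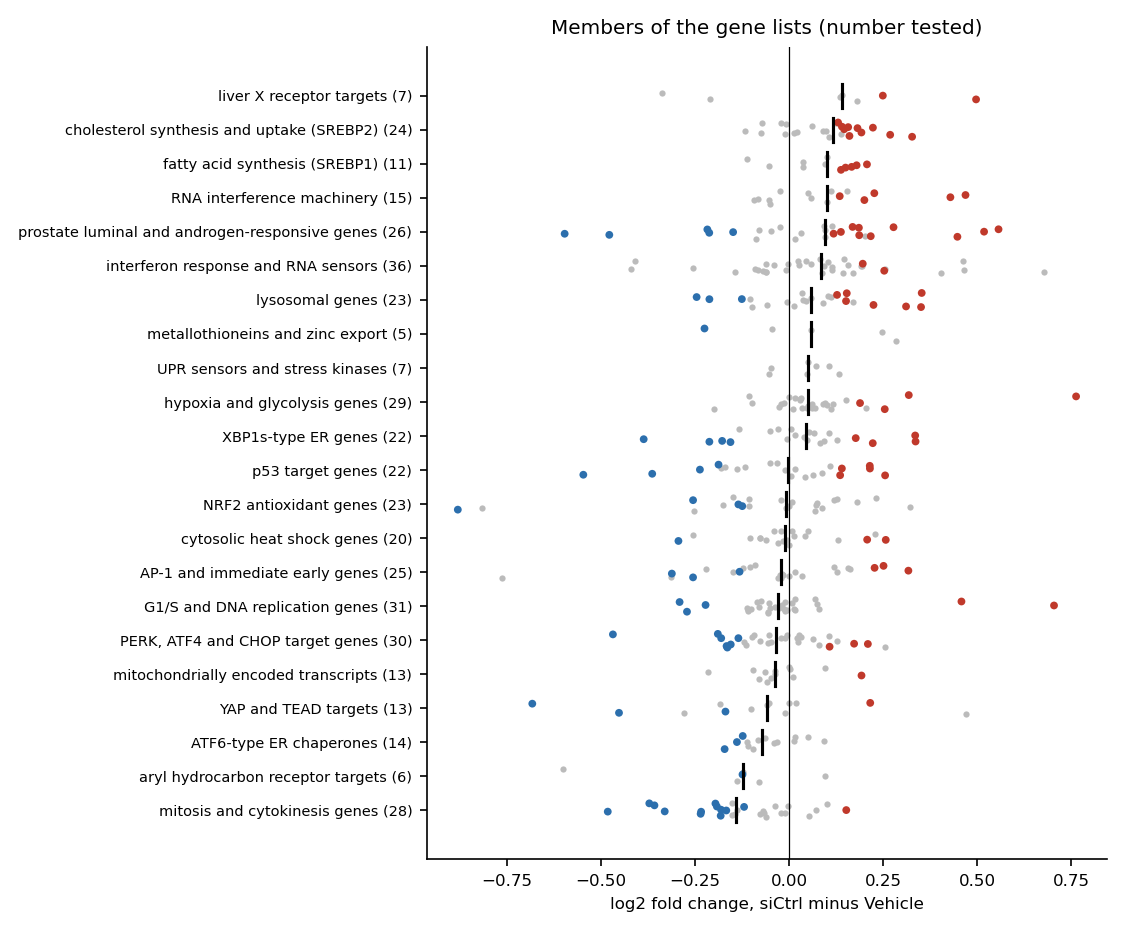
Log2 fold change of siCtrl against Vehicle for the members of 22 gene lists (points; called genes red when higher and blue when lower in siCtrl, others grey), with the list medians as black bars and the number of tested members in brackets. The mitosis list has the lowest median (-0.14). The sterol, fatty acid, RNA interference, liver X receptor, hypoxia, interferon, UPR sensor and mitochondrially encoded lists have no called member on the lower side.

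Of the prostate luminal and androgen-responsive genes, 10 of 26 were higher (38.5%) and 5 lower (19.2%) in siCtrl, both above the shares over all genes, and the median was 0.095. KLK3 (prostate-specific antigen), a classical androgen-responsive gene, had 639, 636, 652 and 678 CPM in siCtrl and 670.1, 597, 669.6 and 642 CPM in Vehicle (0.015 ± 0.041, edgeR adjusted p = 0.88). The KLK3 groups overlapped, and its 95% interval ran from -0.07 to 0.099. FKBP5, a co-chaperone and androgen-responsive gene, had 305, 336, 305 and 355 CPM in siCtrl and 232, 226, 245 and 250.4 CPM in Vehicle (0.45 ± 0.048, edgeR adjusted p = 2.7e-07). The cold channel gene TRPM8 differed by 0.56 ± 0.061 (edgeR adjusted p = 4.6e-07) and the nicotinic receptor gene CHRNA2 by 0.52 ± 0.066 (edgeR adjusted p = 3.6e-06). Another 6 members were higher by 0.12 to 0.28, among them ACP3, CAMKK2, KLK2, KLK4 and TMPRSS2. FOXA1, a pioneer factor that opens chromatin, had 355, 371, 356 and 334 CPM in siCtrl and 542, 522, 548 and 532 CPM in Vehicle, 1.51-fold lower (-0.60 ± 0.039, edgeR adjusted p = 5.7e-11). The epithelial adhesion gene EPCAM had 49.4, 42.7, 42.3 and 42.001 CPM and 59.9, 63.4, 62.8 and 59.7 CPM (-0.48 ± 0.053, edgeR adjusted p = 5.4e-07). Both sets of libraries were wide apart, and in EPCAM siCtrl replicate 1 stood above the other 3 siCtrl libraries. Of the abundant surface proteins, FOLH1 (prostate-specific membrane antigen) was lower, at -0.15 ± 0.037 (edgeR adjusted p = 0.0063), as was STEAP1, at -0.21 ± 0.042 (edgeR adjusted p = 8.0e-04). PMEPA1 was lower too (-0.22 ± 0.051, edgeR adjusted p = 0.0044), and its groups overlapped.

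Genes of mitosis and cytokinesis had the lowest median of the lists: 12 of 28 (42.9%, against 6.34% of all genes) were lower and 1 was higher in siCtrl, with a median of -0.14. Leaving out 1 library left 11 to 14 members called lower. CCNB1, the cyclin that takes cells into mitosis, had 92.3, 87.7, 94.3 and 91.4 CPM in siCtrl and 130.3, 128, 123 and 129 CPM in Vehicle (-0.48 ± 0.041, edgeR adjusted p = 7.8e-09). TOP2A, the topoisomerase that untangles chromosomes, had 145, 137, 136 and 139.5 CPM and 172, 179.9, 184 and 184 CPM (-0.37 ± 0.04, edgeR adjusted p = 3.3e-07). CCNA2, the cyclin of S and G2 phase, had 30.2, 34.02, 35.2 and 36.9 CPM and 40.1, 46.6, 45.8 and 42.5 CPM (-0.36 ± 0.061, edgeR adjusted p = 1.6e-04). Every siCtrl library was below every Vehicle library in these genes. CDK1, the kinase partner of both cyclins, was lower, at -0.18 ± 0.042 (edgeR adjusted p = 0.0035). BIRC5, BUB1B, HMMR, KIF11, MKI67, NUSAP1, PRC1 and TPX2 were lower, at -0.12 to -0.33. The anaphase activator CDC20, the most abundant of the list at 182 ± 7.803 TPM in siCtrl and 191 ± 11.9 TPM in Vehicle, did not pass (-0.062 ± 0.046, 95% interval -0.16 to 0.032). ANLN, a scaffold of the contractile ring, was higher (0.15 ± 0.041, edgeR adjusted p = 0.011). In the list of G1/S and DNA replication genes 2 of 31 were higher, 3 were lower and the median was -0.031. Beside CDC25A, the higher gene was CCNE1, the cyclin that activates CDK2, with 12.6, 12.8, 11.7 and 11.6 CPM in siCtrl and 8.98, 8.86, 8.95 and 8.61 CPM in Vehicle (0.46 ± 0.075, edgeR adjusted p = 9.8e-05). The lower genes were TYMS, which makes thymidylate (-0.29 ± 0.051, edgeR adjusted p = 2.0e-04), the replication factor GINS3 (-0.27 ± 0.071, edgeR adjusted p = 0.01) and the histone mRNA binder SLBP (-0.22 ± 0.05, edgeR adjusted p = 0.0029). PCNA, the sliding clamp (-0.057 ± 0.042, 95% interval -0.14 to 0.03), and TK1 (0.016 ± 0.042, 95% interval -0.071 to 0.10), the most abundant of that list, did not pass.

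Promoters were read for the lists of mitosis, cholesterol and fatty acid genes, which had many called members in 1 direction and have a known element near their starts. The prostate luminal and androgen-responsive list also had many members called higher (38.5%), but no element was chosen for it and its promoters were not read. RefSeq promoters (GRCh38.p14, 250 bases before to 50 after the start) were at hand for 22 of the 28 mitosis genes, and AURKA, BIRC5, FOXM1, TPX2, TTK and UBE2C had none. CCAAT, the box bound by NF-Y, stood on either strand in 19 of the 22 (86.4%), against 39.7% of all 27305 genes with a promoter. TTTGAA, the core of the element called CHR in cell cycle genes, stood in 15 (68.2%), against 18.2% of all genes. The 27305 genes were not limited to those tested here, and the 19 and 15 include members that were not called. Among the called lower members with a promoter, 9 of 10 held the first and 8 of 10 the second. The letters overlap where TTTGAA runs into ATTGG. These are matches of letters in a window and were not tested further. The strongest falls among them are shown in the sense of the gene, as a stretch of 30 bases before its RefSeq start with the match in capitals (ATTGG is CCAAT on the other strand), since they carry the largest differences of the list:
CCNB1: gccacgaacaggCCAATaaggagggagcag
TOP2A: agcgagtcagggATTGGctggtctgcttcg
CCNA2: gcgagcgctttcATTGGtccatttcaatag
BUB1B: gggaccgttaaaTTTGAAacttggcggcta

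They lie at chr5:69167083-69167112 on the plus strand (the match begins 55 bases before that start), chr17:40417932-40417961 on the minus strand (53 bases), chr4:121823922-121823951 on the minus strand (56 bases) and chr15:40161034-40161063 on the plus strand (23 bases). In the annotation of the count table, whose gene starts differ, the CCNB1 and BUB1B stretches lie inside the gene, and those of TOP2A and CCNA2 run across its start. No readout of these samples bears on factor binding at them.

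Genes of cholesterol synthesis and uptake, the targets of SREBP2, were called in 1 direction: 10 of 24 (41.7%, against 7.66% of all genes) were higher and 0 lower in siCtrl (edgeR; 1 at an unadjusted p under 0.05 and 0 in DESeq2). No member was called lower in any of the other fits either. The median was 0.12, 22 95% intervals lay within 0.32 of 0, and 7 to 10 members were called higher when 1 library was left out. MSMO1, the sterol demethylase, had 259, 246, 256 and 271 CPM in siCtrl and 192, 222, 201 and 208 CPM in Vehicle (0.33 ± 0.044, edgeR adjusted p = 9.9e-06). DHCR7, the last enzyme of a branch of the pathway, had 324, 354, 341 and 354 CPM and 301, 284, 297 and 294 CPM (0.22 ± 0.039, edgeR adjusted p = 2.5e-04). All siCtrl libraries lay above all Vehicle libraries in these genes. FDFT1 (squalene synthase) was higher, at 0.14 ± 0.038 (edgeR adjusted p = 0.012). Its call was lost without Vehicle replicate 3 (log2 fold change 0.13, edgeR adjusted p = 0.052) or without Vehicle replicate 4 (log2 fold change 0.13, edgeR adjusted p = 0.066). Another 6 members, among them HMGCS1, LSS, MVD, NSDHL and SREBF2, were higher by 0.13 to 0.19. Of the fatty acid synthesis genes, targets of SREBP1, 5 of 11 were higher and 0 lower (edgeR; 1 at an unadjusted p under 0.05 and 1 in DESeq2), with a median of 0.10. The gene called lower in DESeq2, and by edgeR without Vehicle replicate 1, was ME1 (malic enzyme). The count higher fell to 3 without siCtrl replicate 2, Vehicle replicate 2 or Vehicle replicate 4. SCD, the stearoyl-CoA desaturase, had 1482, 1518, 1492 and 1495 CPM in siCtrl and 1308, 1269.7, 1318 and 1290.0 CPM in Vehicle (0.21 ± 0.035, edgeR adjusted p = 1.6e-04). GPAM differed by 0.17 ± 0.044 (edgeR adjusted p = 0.0099), and ACACA and ACLY by 0.14 and 0.15. FASN (fatty acid synthase) had 2134, 2561, 2278 and 2333 CPM and 2203, 1834, 2156 and 2024 CPM, with overlapping groups (0.18 ± 0.052, edgeR adjusted p = 0.021). Its call was lost without siCtrl replicate 2 or Vehicle replicates 2 or 4 (edgeR adjusted p 0.062 to 0.12). Among liver X receptor targets, MYLIP, a ubiquitin ligase, was higher, with 40.005, 34.9, 34.6 and 38.92 CPM in siCtrl and 24.9, 27.95, 26.5 and 25.8 CPM in Vehicle (0.50 ± 0.059, edgeR adjusted p = 1.4e-06). The phospholipid enzyme LPCAT3 was higher too (0.25 ± 0.048, edgeR adjusted p = 6.3e-04), and the other 5 of 7 did not pass, so that 0 were lower (edgeR; 1 at an unadjusted p under 0.05 and 0 in DESeq2).

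The sterol regulatory element TCACNCCAC was found, on either strand, in 1 of 18 cholesterol genes with a promoter and in 0 of 10 fatty acid genes, against 1.39% of all genes. ACAT2, FDFT1, SQLE and FASN were among those with no promoter in the table. The match was that of SREBF2, which encodes SREBP2, and is shown because it is the only one in a called member (match in capitals, at chr22:41832962-41832991, plus strand, GRCh38.p14, beginning 133 bases before the RefSeq start and ahead of the gene in the count table):
SREBF2: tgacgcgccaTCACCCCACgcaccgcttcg

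The RNA interference machinery, which takes up siRNA, had 5 of 15 genes higher (33.3%, against 7.66% of all genes) and 0 lower in siCtrl (edgeR; 0 at an unadjusted p under 0.05 and 0 in DESeq2), with a median of 0.10. DICER1, which cuts double-stranded RNA into small RNAs, had 102, 99.1, 97.6 and 95.2 CPM in siCtrl and 67.9, 73.2, 73.97 and 69.3 CPM in Vehicle (0.47 ± 0.044, edgeR adjusted p = 3.7e-08). AGO2, the Argonaute that can slice a target, had 135, 158, 137 and 159.7 CPM and 114, 105, 109 and 110.3 CPM (0.43 ± 0.051, edgeR adjusted p = 1.7e-06). The scaffold gene TNRC6A had 178, 171, 168 and 168 CPM and 149, 146, 144 and 146 CPM (0.23 ± 0.039, edgeR adjusted p = 1.7e-04). The groups did not overlap, and AGO2 was split within siCtrl, with replicates 2 and 4 above replicates 1 and 3. AGO1 was higher by 0.20, and XPO5, the exporter of miRNA precursors, by 0.13 ± 0.039 (edgeR adjusted p = 0.019). The call of XPO5 was lost without siCtrl replicate 3 (log2 fold change 0.12, edgeR adjusted p = 0.076) or Vehicle replicate 4 (log2 fold change 0.13, edgeR adjusted p = 0.073). TSN did not pass (0.057 ± 0.049, 95% interval -0.044 to 0.16). Interferon response genes and sensors of foreign RNA gave 2 of 36 higher and 0 lower (edgeR; 2 at an unadjusted p under 0.05 and 0 in DESeq2), below the 7.66% and 6.34% of all genes, with a median of 0.085. Only 15 of the 36 had a 95% interval within 0.32 of 0 on the log2 scale. The log2 fold changes of the members ran from -0.42 to 0.68. The few calls therefore do not show that these genes were alike in the controls. Without siCtrl replicate 3, siCtrl replicate 4, Vehicle replicate 3 or Vehicle replicate 4 only 1 was higher, and without siCtrl replicate 4 IFIT5 was called lower. RIGI, a cytosolic sensor of double-stranded RNA, had 21.5, 19.7, 18.5 and 22.5 CPM in siCtrl and 16.3, 17.1, 17.6 and 18.01 CPM in Vehicle (0.25 ± 0.068, edgeR adjusted p = 0.011). Its call was lost without siCtrl replicate 4 (log2 fold change 0.21, edgeR adjusted p = 0.058). IFI35 differed by 0.20 ± 0.063 (edgeR adjusted p = 0.038), a call lost without siCtrl replicates 2, 3 or 4 or Vehicle replicates 1, 3 or 4 (edgeR adjusted p 0.056 to 0.14). It was also lost with no filter on low counts (edgeR adjusted p = 0.08) and with the replicate block (edgeR adjusted p = 0.056). The most abundant members, IFITM3 (0.088 ± 0.059, 95% interval -0.034 to 0.21) and ISG15 (-0.042 ± 0.083, 95% interval -0.21 to 0.13), did not pass.

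Of the remaining lists, the p53, lysosomal, YAP and TEAD, AP-1 and heat shock lists held called genes of both directions. The others held them in 1 direction only. Of the p53 targets 5 of 22 were higher and 4 lower (median -0.0037). SESN1, a brake on mTORC1, had 41.04, 39.1, 39.96 and 36.1 CPM in siCtrl and 56.3, 60.7, 52.96 and 58.3 CPM in Vehicle (-0.55 ± 0.053, edgeR adjusted p = 6.2e-08). DDB2 of DNA repair differed by -0.36 ± 0.055 (edgeR adjusted p = 3.9e-05) and PHLDA3, an inhibitor of AKT, by -0.24 ± 0.053 (edgeR adjusted p = 0.0025). CDKN1A (p21), the CDK inhibitor and most abundant of the list with 377 ± 20.2 TPM in siCtrl and 327 ± 14.3 TPM in Vehicle, was higher (0.21 ± 0.039, edgeR adjusted p = 3.7e-04). So were BTG2 (0.21 ± 0.043, edgeR adjusted p = 1.0e-03) and ZMAT3 (0.26 ± 0.061, edgeR adjusted p = 0.0049). ZMAT3 was the gene of these 6 whose groups overlapped. Lysosomal genes were higher in 7 and lower in 3 of 23 (median 0.059), and leaving out 1 library left 4 (without siCtrl replicate 3) to 7 higher. NPC1, which exports cholesterol from lysosomes, had 285, 287, 286 and 280.4 CPM in siCtrl and 225, 219.8, 221 and 226 CPM in Vehicle (0.35 ± 0.036, edgeR adjusted p = 1.6e-07). CTSA (cathepsin A) was higher too, at 0.35 ± 0.055 (edgeR adjusted p = 6.5e-05). ATP6V1A, a subunit of the proton pump, was lower (-0.25 ± 0.046, edgeR adjusted p = 4.3e-04).

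In the list of YAP and TEAD genes, which holds targets and the factors themselves, 3 of 13 were lower, among them YAP1, and 1 was higher (median -0.059). CCN2, a matricellular protein, had 1.86, 1.97, 1.83 and 1.77 CPM in siCtrl and 3.22, 2.795, 2.59 and 3.32 CPM in Vehicle (-0.68 ± 0.14, edgeR adjusted p = 0.0012). Its relative CCN1 had 47.4, 46.8, 43.1 and 45.96 CPM and 66.4, 58.7, 63.6 and 62.3 CPM (-0.45 ± 0.05, edgeR adjusted p = 4.2e-07). YAP1 itself was lower, at -0.17 ± 0.043 (edgeR adjusted p = 0.0073), and LATS2, the kinase that restrains it, was higher by 0.22 ± 0.056 (edgeR adjusted p = 0.0093), each with no overlap between the groups. AP-1 and immediate early genes gave 3 higher and 3 lower of 25 (median -0.021). KLF10 was lower, at -0.31 ± 0.047 (edgeR adjusted p = 4.0e-05). JUNB was lower, at -0.26 ± 0.065 (edgeR adjusted p = 0.0076), with overlapping groups and no call in DESeq2 (adjusted p = 0.081). The phosphatase gene DUSP2 was higher by 0.32 ± 0.068 (edgeR adjusted p = 0.0018). Of the NRF2 antioxidant genes 4 of 23 were lower and 0 higher (edgeR; 4 at an unadjusted p under 0.05 and 0 in DESeq2; median -0.0077), with 2 lower without siCtrl replicate 3, Vehicle replicate 2 or Vehicle replicate 4. SRXN1 (sulfiredoxin) had 6.89, 15.03, 6.42 and 6.46 CPM in siCtrl, where replicate 2 stood apart, and 14.8, 17.7, 13.7 and 18.1 CPM in Vehicle (-0.88 ± 0.17, edgeR adjusted p = 7.8e-04). NQO1, a quinone reductase, had 97.9, 95.05, 93.2 and 107 CPM and 112, 118, 117 and 122 CPM (-0.26 ± 0.046, edgeR adjusted p = 3.3e-04). The SRXN1 groups overlapped through siCtrl replicate 2, and those of NQO1 did not.

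Hypoxia and glycolysis genes were higher in 4 of 29 and lower in 0 (edgeR; 2 at an unadjusted p under 0.05 and 1 in DESeq2; median 0.05). DESeq2 called 7 higher. The gene called lower there, with a minimum of 10 counts in every library and without siCtrl replicate 1 or Vehicle replicate 1 was the neuronal enolase ENO2, and without siCtrl replicate 4 it was TPI1. The higher genes beside SLC2A3 were the regulatory enzyme PFKFB4 (0.32 ± 0.064, edgeR adjusted p = 0.001), NDRG1 (0.25 ± 0.053, edgeR adjusted p = 0.0014) and BNIP3L (0.19), while GAPDH (0.068 ± 0.04) and ENO1 (-0.021 ± 0.037) did not pass. Of 20 cytosolic heat shock genes 2 were higher and 1 lower (median -0.012). HSPA8, the constitutive HSP70, had 1708, 1724, 1762 and 1769 CPM in siCtrl and 1408, 1476, 1472 and 1471 CPM in Vehicle (0.26 ± 0.036, edgeR adjusted p = 1.4e-05). Its co-chaperone DNAJB1 went the other way (-0.29 ± 0.046, edgeR adjusted p = 5.7e-05), and DNAJB4 was higher (0.21 ± 0.053, edgeR adjusted p = 0.0081). In HSPA8 and DNAJB1 the groups did not overlap. Of 5 tested genes of metal handling, the zinc exporter SLC30A1 was lower (-0.23 ± 0.053, edgeR adjusted p = 0.0042), 0 were higher (edgeR; 1 at an unadjusted p under 0.05 and 0 in DESeq2) and the metallothionein MT2A did not pass (0.057 ± 0.062). Without siCtrl replicate 1 the metallothionein MT1G was called higher. Of 6 genes of the aryl hydrocarbon receptor list NFE2L2, which encodes NRF2, was lower (-0.12 ± 0.041, edgeR adjusted p = 0.042) and 0 were higher (edgeR; 1 at an unadjusted p under 0.05 and 0 in DESeq2). This call was lost without siCtrl replicates 2, 3 or 4 or Vehicle replicates 2, 3 or 4 (edgeR adjusted p 0.058 to 0.12) and with the replicate block (edgeR adjusted p = 0.078). Of 13 mitochondrially encoded genes MT-ND6 was called higher (0.19 ± 0.065, edgeR adjusted p = 0.048), with overlapping groups and no call without siCtrl replicates 1, 2 or 3 or Vehicle replicates 1 or 3 (edgeR adjusted p 0.056 to 0.19). The call was also lost with at least 10 counts in every library (edgeR adjusted p = 0.058), with the replicate block (edgeR adjusted p = 0.054), with all 16 libraries in 1 fit (edgeR adjusted p = 0.15) and in DESeq2 (adjusted p = 0.2). Without siCtrl replicate 4, the library with the lowest mitochondrial share, 4 were called higher. None was called lower by edgeR (0; 0 at an unadjusted p under 0.05 and 0 in DESeq2), but MT-ATP8 was without siCtrl replicate 1 and with no filter on low counts.

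The same contrast of experiments was also read in the other 8 libraries, siXBP1 against MKC8866, which share no library with the controls but add the XBP1 knockdown on one side and the inhibitor on the other. The siXBP1 cells were transfected with XBP1-specific siRNA 2 days before TG, and the MKC8866 cells were given 10 μM of the inhibitor for 24 h before TG. XBP1 had 51.2, 54.3, 54.3 and 53.5 CPM in siXBP1 and 582, 619, 575 and 538 CPM in MKC8866, and it was lower in every library labelled siXBP1. There 3024 of 20985 genes (14.4%) were higher and 3295 (15.7%) lower in siXBP1. Of the 1615 genes higher in siCtrl, 504 (31.2%) were also higher and 376 (23.3%) lower in siXBP1. Of the 1337 genes lower in siCtrl, 357 (26.7%) were also lower and 247 (18.5%) higher. Both directions were above their shares over all genes, the same direction more so. Genes called in the controls were mostly protein-coding (2698 of 2952), so the shares over all genes are not a like background. Of the 7 genes at least 2-fold higher in siCtrl, 0 were higher and 1 was lower in siXBP1. Of the 33 at least 2-fold lower, 6 were lower and 3 higher. For all called genes, the median log2 fold changes in the treated libraries were 0.031 and -0.029, against 0.22 and -0.29 in the controls. ZNF367 had 37.97, 37.96, 40.6 and 36.3 CPM in siXBP1 and 60.1, 62.1, 60.1 and 60.6 CPM in MKC8866. It was lower there as well, at -0.67 ± 0.049 (edgeR adjusted p = 9.6e-12), and so was SMIM15, at -0.23 ± 0.056 (edgeR adjusted p = 0.0019). LRRC26 had -0.62 ± 0.17 (edgeR adjusted p = 0.0056) and PROS1 -1.42 ± 0.22 (edgeR adjusted p = 1.2e-05). HIC2 was higher by 1.00 ± 0.10 (edgeR adjusted p = 9.0e-09) and ASB13 by 0.43 ± 0.081 (edgeR adjusted p = 1.3e-04). GPR137B was higher by 0.36 ± 0.071 (edgeR adjusted p = 1.9e-04) and CDC25A by 0.29 ± 0.055 (edgeR adjusted p = 1.3e-04). MEX3B, DESI2 and GNG5B, lower in siCtrl, were higher in siXBP1, MEX3B at 20.9, 18.2, 17.5 and 18.8 CPM against 11.5, 10.5, 10.4 and 10.3 CPM in MKC8866. Their log2 fold changes there were 0.82 ± 0.073 (edgeR adjusted p = 4.2e-10), 0.36 ± 0.053 (edgeR adjusted p = 4.9e-06) and 0.64 ± 0.13 (edgeR adjusted p = 4.7e-04). GNG5 had 0.52 ± 0.043 (edgeR adjusted p = 1.3e-10) there, and FOXA1 0.20 ± 0.045 (edgeR adjusted p = 9.1e-04). FKBP5 and TRPM8, higher in siCtrl, were lower in siXBP1, at -0.44 ± 0.047 (edgeR adjusted p = 1.7e-08) and -0.22 ± 0.071 (edgeR adjusted p = 0.017). CHRNA2 did not pass there (-0.034 ± 0.068, edgeR adjusted p = 0.77). DICER1 (0.056 ± 0.048, edgeR adjusted p = 0.43) and TOP2A (-0.012 ± 0.041, edgeR adjusted p = 0.87) did not pass there, and CCNB1 was higher (0.12 ± 0.042, edgeR adjusted p = 0.028). Whether the differences of the 2 pairs of groups are unlike was not tested.

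**Figure D5:**
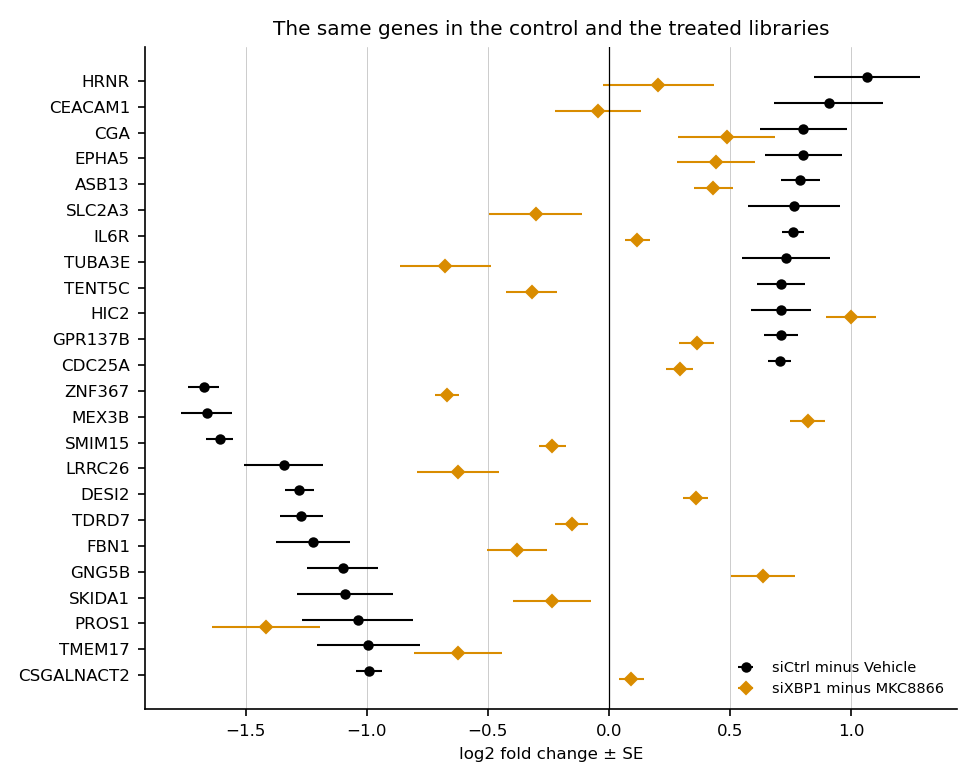
Log2 fold change with its SE (horizontal axis) of the 24 genes with the largest called differences, in siCtrl minus Vehicle (black circles) and in siXBP1 minus MKC8866 (orange diamonds). ZNF367 lies on the lower side in both (-1.67 and -0.67), whereas MEX3B changes sides (-1.66 and 0.82).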

How the data were processed

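Per the labels and the study's methods, the authors sequenced stranded TruSeq libraries as paired ends, aligned the reads to hg38 with STAR 2.5.2a and counted fragments per gene with featureCounts 1.5.0, without regard to strand. The deposited values are counts, not normalized, for 58051 Ensembl genes, of which 56948 had a symbol, and every column used was matched to its sample by name; the file's gene lengths gave TPM. A gene was tested if each group had a library with over 5 counts of it. The test was the two-sided quasi-likelihood F test of edgeR 4.0.16 in R 4.3.3 with TMM scaling and Benjamini-Hochberg adjustment over all genes tested (threshold 0.05), without a replicate block. The SE was taken from the log2 fold change and its F statistic, and the 95% interval from the SE. The test was tried on simulated counts. At the depth given above, counting error limits the weakly expressed genes and the spread between libraries the others. The single shares were tested with an exact permutation test over the 8 libraries. Members and lists were chosen with earlier results of these data known. Named were the 12 protein-coding genes with the largest called difference in each direction (mean of at least 1 CPM, groups not overlapping), the 15 most abundant nuclear protein-coding genes, per list up to 3 called genes in each direction and the 2 most abundant, and XBP1, ERN1, ATF6, EIF2AK3, HSPA5, DDIT3 and KLK3. Some genes that the rule names are not reported here. Paralogues, overlapping genes and genes called in another fit alone were named after their values were seen. Promoter coordinates are those of the RefSeq table (GRCh38.p14), and gene coordinates those of the count table. Alternatives were DESeq2 1.42.0, RLE size factors, no filter, a minimum of 10 counts per library, a replicate block, all 16 libraries in 1 fit, other thresholds and the removal of each library. Values outside R were computed with pandas 2.3.3 and scipy 1.17.1, and figures drawn with matplotlib 3.10.9.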

Additional observations from a re-analysis of the deposited data

Results flagged for a closer look

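In 14 of 294 pairs of a named gene and a control group (4.76%), 1 library stood apart from the other 3 by more than Dixon's 95% critical value, which chance passes in about 1 in 20 groups. In siCtrl, replicate 1 was apart for EPCAM (49.4 CPM), PFKFB4 (22.6 CPM) and SLC7A11 (292 CPM), replicate 2 for HSPA5 (3505 CPM) and SRXN1 (15.03 CPM), and replicate 4 for MT-CO2 (2344 CPM). In Vehicle, replicate 1 was apart for DDIT4 (572 CPM) and HSPA8 (1408 CPM), replicate 2 for ERN1 (157 CPM), DUSP5 (10.7 CPM) and SQSTM1 (491 CPM), replicate 3 for IER2 (17.97 CPM) and replicate 4 for ATF3 (842 CPM) and JUNB (129.5 CPM). The low MT-CO2 of siCtrl replicate 4 goes with that library's mitochondrial share of 2.76%, and the part of either in other results was not tested. For 5 of the 24 genes with the largest differences, siXBP1 and MKC8866 libraries did not overlap either but stood the other way round than siCtrl and Vehicle: TUBA3E (log2 fold change of siXBP1 against MKC8866 -0.68), TENT5C (-0.32), MEX3B (0.82), DESI2 (0.36) and GNG5B (0.64). That difference was not tested. Over all 21092 genes tested, 17.5% had no overlap between siCtrl and Vehicle. The share for siXBP1 and MKC8866 is not given here.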

How the results depend on the processing

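The counts of genes higher and lower in siCtrl stayed within 1.5 times of 1615 and 1337 under another tool, normalization or filter, all 16 libraries in 1 fit and the removal of each library. The removal of each library gave 1273 to 1690 higher and 1019 to 1440 lower. DESeq2 gave 1815 higher, and no filter on low counts gave 1548 lower. At an adjusted p under 0.01 the counts were 954 and 798. The counts at 2-fold (7 higher, 33 lower) rest on weak genes: 24 and 64 without a filter, 2 and 14 with at least 10 counts in every library, 0 and 9 in DESeq2, which gave no adjusted p for 31 of the 40, 2 to 8 and 28 to 41 when 1 library was left out, and 45 and 177 at 1.5-fold. With the replicate block, 1427 genes were higher, 1234 lower, and 4 and 27 at 2-fold. No label ties the replicate numbers across the experiments, correlations of same-numbered libraries ran from -0.14 to 0.11, and not every library correlated best with its own number. List medians moved by more than the spread between libraries only when 1 library was left out: 0.019 to 0.054 for XBP1s-type genes, -0.15 to -0.11 for mitosis, 0.035 to 0.071 for hypoxia, -0.022 to 0.017 for p53, -0.038 to 0.0056 for NRF2, 0.029 to 0.10 for lysosomal and 0.078 to 0.14 for RNA interference genes. The cause was not tested. Of 109 called named genes, 89 were called in every fit that gave an adjusted p, 19 lost the call when some library was left out, 6 with the block and 2 in DESeq2, and none changed direction.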

Other observations

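Of the noncoding genes, 36 of 3431 long noncoding RNA genes were higher and 80 lower (3.38% in all), against 19.2% of protein-coding genes, and their median levels were 0.647 and 28.9 CPM. The named ones below were chosen after their values were seen, as the largest differences with no overlap between groups. THAP9-AS1, an antisense RNA, had 31.5, 26.1, 30.9 and 24.5 CPM in siCtrl and 53.4, 60.2, 54.9 and 54.8 CPM in Vehicle, 1.98-fold lower (-0.98 ± 0.066, edgeR adjusted p = 8.6e-11), and counting without strand cannot tell its reads from those of an overlapping gene. The pseudogene BEND3P3 differed by -1.20 ± 0.24 (edgeR adjusted p = 7.6e-04) with a lowest count of 13, and STAM-DT by -0.87 ± 0.23 (edgeR adjusted p = 0.012) with a lowest count of 17. In the other direction, LYPLA2P1 differed by 0.56 ± 0.084 (edgeR adjusted p = 3.8e-05) and LYPLA2P2 by 0.56 ± 0.14 (edgeR adjusted p = 0.009), and their parent gene LYPLA2, an acyl-protein thioesterase from which their reads cannot be told apart with certainty, had 46.9, 51.4, 52.4 and 53.02 CPM in siCtrl and 38.4, 35.7, 36.7 and 36.9 CPM in Vehicle (0.46 ± 0.051, edgeR adjusted p = 4.2e-07). PDPK2P, a copy of the kinase gene PDPK1, differed by 0.53 ± 0.12 (edgeR adjusted p = 0.0021).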
